A study of Mus musculus with 8 samples.

Results

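The Rab GTPases were followed in mouse brain at the edge of an aspiration cavity. Their expression was measured by CAGE, short for cap analysis of gene expression, in which each tag reads the capped start of an RNA molecule. The members were the rows of the gene table whose symbol is Rab followed by a number, with or without a letter from a to d or an l and a digit. A single further gene of this form was left out beforehand. This gave 53 genes of 17644 in the table. All animals were 11-week-old male C57BL/6NCrSlc mice in which motor cortex was aspirated to a depth of 1 mm, and brain within 1.0 mm of the cavity was collected. In the 1-week group (4 samples) the brain was taken 1 week after the lesion, and in the no-delay group (4 samples) it was taken immediately after it. Both groups therefore carry the lesion, and no uninjured tissue is compared here. The title of the series concerns progranulin and grafted human neurons, and the comparison addresses how the tissue that would receive a graft differs between a week-old and a fresh cavity. The labels list separate samples and do not say that each is 1 animal, so p-values measure the spread between these samples, which may be technical.

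Rab proteins are small GTPases that mark the membranes of a cell. Loaded with GTP by an exchange factor (GEF), a Rab recruits effectors that move, tether or fuse vesicles, and a GTPase-activating protein (GAP) turns it off again. Each Rab favours certain compartments, such as Rab5 on early endosomes, Rab7 on late endosomes and lysosomes, Rab11 on recycling endosomes, and Rab3 and Rab27 on secretory vesicles. In brain, neurons rely on Rabs for synaptic vesicle release and for transport along axons and dendrites, and phagocytes rely on them for the maturation of phagosomes and lysosomes.

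Promoter windows are shown for the 2 Rab genes with the largest rises at 1 week (Rab32 and Rab20), for the Rab gene that was lower with the smallest adjusted p (Rab24), and for a pair of close relatives that moved apart (Rab5a, lower, and Rab5c, higher). Each window is RefSeq sequence of GRCm38.p6 from 250 bases before to 50 bases after the annotated gene start, written 5' to 3' on the gene's strand. The windows are chr10:10558158-10558457 on the minus strand for Rab32, chr8:11478591-11478890 on the minus strand for Rab20, chr13:55321931-55322230 on the minus strand for Rab24, chr17:53478984-53479283 on the plus strand for Rab5a and chr11:100738166-100738465 on the minus strand for Rab5c. Capitals mark matches to the motifs named after the sequences.
Rab32: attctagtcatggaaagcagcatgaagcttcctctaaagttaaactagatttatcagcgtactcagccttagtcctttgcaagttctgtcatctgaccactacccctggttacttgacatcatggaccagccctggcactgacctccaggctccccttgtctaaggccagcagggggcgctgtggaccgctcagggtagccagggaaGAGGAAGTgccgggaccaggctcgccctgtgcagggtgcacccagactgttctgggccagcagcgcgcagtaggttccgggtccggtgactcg
Rab20: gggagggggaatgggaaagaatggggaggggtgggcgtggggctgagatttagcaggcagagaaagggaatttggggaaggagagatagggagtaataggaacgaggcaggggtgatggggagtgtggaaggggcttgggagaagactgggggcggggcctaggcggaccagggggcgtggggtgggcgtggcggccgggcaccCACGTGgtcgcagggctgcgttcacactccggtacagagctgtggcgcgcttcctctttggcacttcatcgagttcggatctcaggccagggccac
Rab24: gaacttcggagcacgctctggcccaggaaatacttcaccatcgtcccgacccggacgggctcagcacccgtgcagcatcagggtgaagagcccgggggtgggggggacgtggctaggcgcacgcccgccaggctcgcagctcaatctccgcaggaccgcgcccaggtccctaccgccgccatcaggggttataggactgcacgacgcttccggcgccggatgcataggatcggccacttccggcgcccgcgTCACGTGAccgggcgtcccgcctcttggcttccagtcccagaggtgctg
Rab5a: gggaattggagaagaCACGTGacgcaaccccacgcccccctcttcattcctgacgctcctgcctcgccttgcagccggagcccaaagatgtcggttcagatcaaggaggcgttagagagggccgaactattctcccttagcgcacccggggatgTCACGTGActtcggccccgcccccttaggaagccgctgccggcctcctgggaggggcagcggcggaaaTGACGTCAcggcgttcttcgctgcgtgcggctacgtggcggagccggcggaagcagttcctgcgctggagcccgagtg
Rab5c: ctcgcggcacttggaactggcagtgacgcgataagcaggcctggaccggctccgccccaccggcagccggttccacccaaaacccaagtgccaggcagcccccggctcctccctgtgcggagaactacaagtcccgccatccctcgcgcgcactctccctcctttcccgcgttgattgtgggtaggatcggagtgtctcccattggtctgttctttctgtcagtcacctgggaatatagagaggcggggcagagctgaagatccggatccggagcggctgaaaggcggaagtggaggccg

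Both strands were searched for 6 motifs, namely the ETS-type GAGGAAGT, the E-box CACGTG, its extended form TCACGTGA, which contains the E-box, the cAMP response element TGACGTCA, the interferon response type (a GAAA, any 2 bases and a second GAAA) and the AP-1 site TGACTCA. The windows printed and the motifs were chosen after values and sequences had been seen, so the matches are a description. Only these letters were matched, so variant forms of a motif, ETS-type ones included, stay in lower case and were not counted. In Rab32 the capitals are the ETS-type match at bases 208 to 215, a motif present in 3.20% of 32851 promoter windows of the same length. Rab2b, which was not called, also held the ETS-type motif. In Rab20 the capitals are the E-box at bases 205 to 210, and 7.15% of all windows hold an E-box. Rab24 held the extended E-box at bases 252 to 259, just after the gene start, and Rab5a held an E-box at bases 16 to 21 and the extended form at bases 155 to 162. The extended form occurs in 0.974% of all windows, and Rab21, which was not called, also held it. Rab5a also held a cAMP response element at bases 223 to 230, which 1.79% of all windows contain, and no motif searched was in the Rab5c window. Of 53 members, 44 matched the promoter table, and 7 had more than 1 window. A motif was counted for a member if any of its windows held it, while shares over all windows count each window singly. An E-box was found in 2 of 11 members that were higher at 1 week (Rab20 and Rab27a), in 2 of 9 that were lower (Rab24 and Rab5a) and in 2 of 23 that were not called (Rab21 and Rab23). The remaining member matched to a window was Rab19, which was not tested and held no E-box. The interferon response type was in the window of Rab19 and of no other matched member, against 3.44% of all windows, and TGACTCA was in 1 window in each of the 3 tested groups (Rab34, Rab15 and Rab39b), against 5.20%. With the GC-richest window of each member, median GC content was 61.3% for higher members, 68.7% for lower members and 63.7% for uncalled members. Over all windows, each counted singly, it was 52.7%. The tag positions are not in the gene table, so it was not tested whether transcription started in these windows.

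The 8 libraries held 8278855 to 13998941 reads, and expression is given as CPM, the tags of a gene scaled to a common library total. Reading 0 tags allows up to 3, which is 0.214 to 0.362 CPM depending on the library. The same 4 index tags occur in each group. In alphabetical order of the tag the 1-week libraries are called W1 to W4 and the no-delay libraries N1 to N4, and the order pairs nothing. A further 3-base tag was GCT in all 1-week columns and CAC in all no-delay columns, so anything tied to it cannot be told apart from the group. The cellular make-up read from marker genes differed between the groups. The summed level of 6 of 6 microglia markers was 817 to 1199 CPM at 1 week, against 206 to 229 CPM with no delay. That of 5 of 6 markers of infiltrating macrophages and monocytes was 126 to 324 CPM, against 6.66 to 9.59 CPM, with Lyz2 the most abundant and Ccr2 and Ly6c2 under 1 CPM in every library. That of 6 of 6 astrocyte markers was 1692 to 2392 CPM, against 449 to 514 CPM, and that of 5 of 5 endothelial markers was 133 to 173 CPM, against 65.6 to 81.4 CPM. The summed level of 6 of 7 neuron markers was 8033 to 8940 CPM at 1 week, against 9149 to 9966 CPM with no delay, and that of 5 of 5 cortical neuron markers was 261 to 295 CPM, against 304 to 339 CPM. Pericyte and fibroblast markers (5 of 5) summed to 186 to 349 CPM at 1 week, against 120 to 151 CPM, and oligodendrocyte precursor markers (5 of 5) to 107 to 176 CPM, against 66.0 to 86.9 CPM. Oligodendrocyte sums overlapped, at 2200 to 3751 CPM against 1382 to 3161 CPM, and 5 of 7 T cell and neutrophil markers summed to at most 5.79 CPM at 1 week and 12.3 CPM with no delay. Erythrocyte markers (3 of 3) summed to 287 to 4393 CPM at 1 week, against 534 to 1306 CPM with no delay. W1 (4393 CPM) and W4 (2024 CPM) lay above every no-delay library, W3 lay below them all and W2 lay among them. In bulk tissue, a different number of cells of a type and a different amount of RNA per cell cannot be told apart, and the part of these shifts in the Rab results was not tested.

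**Figure D1:**
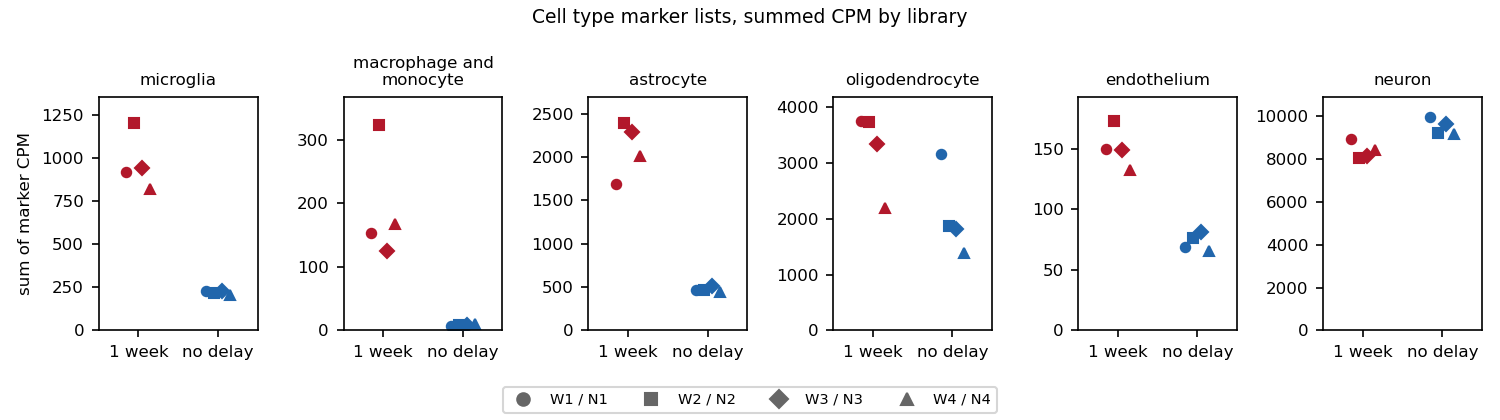
Summed CPM of 6 cell type marker lists in each library (y axis, each panel with its own scale from 0), with 1-week libraries in red and no-delay libraries in blue and a symbol for each of W1 to W4 and N1 to N4. The microglia, macrophage and monocyte, astrocyte and endothelium sums lie higher in every 1-week library than in every no-delay library, the neuron sums lie lower, and the oligodendrocyte sums overlap.

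Of the 53 Rab genes, 50 passed the filter (1 CPM or more in at least 4 libraries) and were tested. At 1 week 11 were higher and 11 were lower with limma at an adjusted p under 0.05, and 28 were not called. Over all 14718 genes tested, 23.4% were higher and 13.4% were lower. On the log2(CPM + 1) scale, the median log2 fold change of the tested Rab genes was 0.02, against 0.06 over all genes. The groups did not overlap for 18 tested Rab genes. All 4 of W1 to W4 exceeded all of N1 to N4 for 8 of them, as for 22.7% of all genes, and all were below for 10, as for 12% of all genes. With TMM scaling 9 Rab genes were higher and 13 lower, the median of the Rab genes was -0.04, and 52.4% of all calls were higher, against 63.6% with CPM as deposited. Summed over the 53 genes, Rab tags made up 4736 to 4808 CPM at 1 week and 4882 to 5174 CPM with no delay. These sums did not overlap, and they differed by much less than many single genes.

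**Figure D2:**
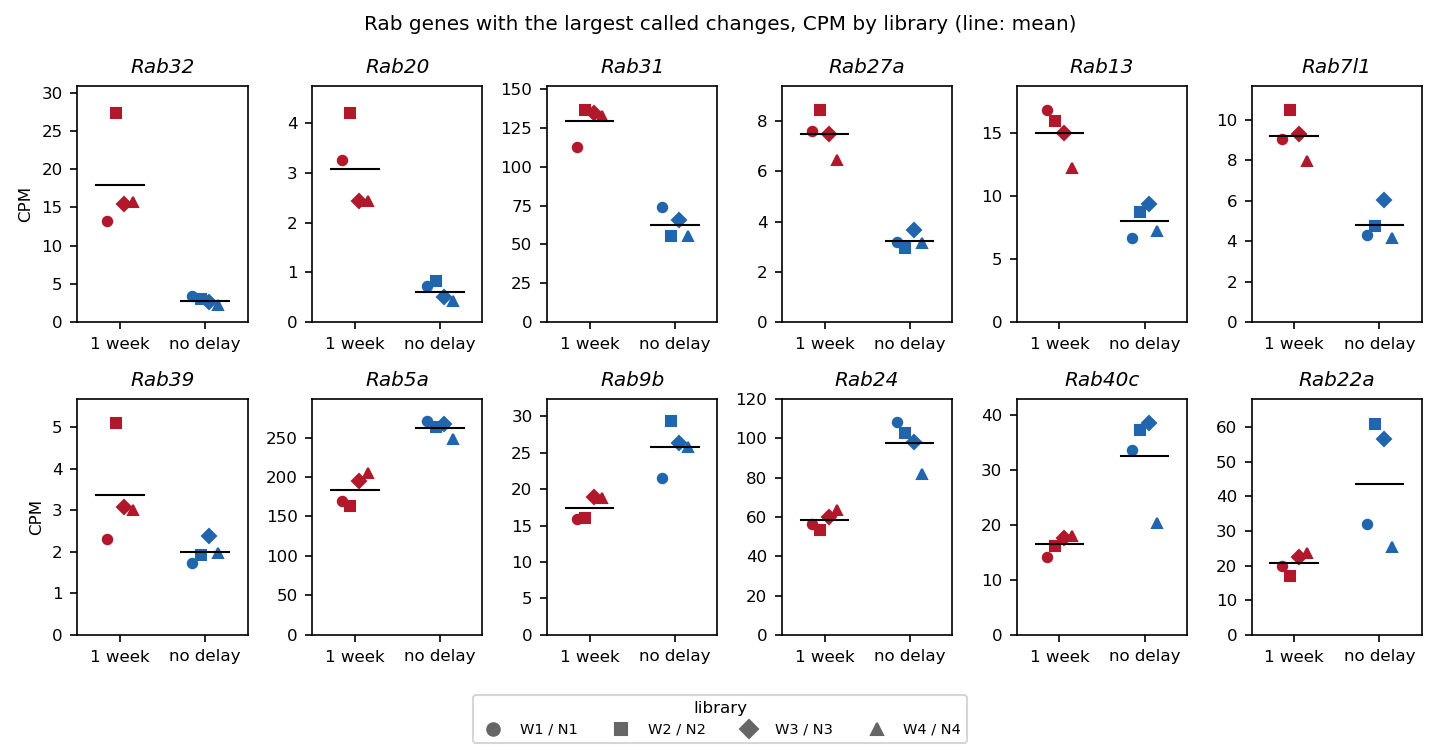
CPM (y axis, from 0) in each library of the 12 Rab genes that were called with a log2 fold change of 0.5 or more in size, ordered from the highest to the lowest change, with 1-week libraries in red on the left and no-delay libraries in blue on the right, a symbol for each of W1 to W4 and N1 to N4 and a line at the mean. Rab39 is the only 1 of the 12 in which the groups overlap, and Rab32 is highest in W2 at 27.3 CPM.

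Counts by role stand beside 23.4% higher and 13.4% lower over all genes tested, and no role was tested as a set. The early endosome Rabs moved in both directions. Of 7 tested, Rab31, Rab20 and Rab5c were higher, Rab5a and Rab22a were lower, and Rab5b and Rab21 were not called. Values are given in the order W1 to W4 and N1 to N4 throughout. Rab31, which works between the trans-Golgi network and endosomes, had 112, 137, 135 and 133 CPM at 1 week, against 74.3, 55.2, 65.9 and 55.5 CPM with no delay. Every 1-week library was above every no-delay library, with W1 the lowest at 1 week and N1 the highest with no delay. The means were 129 ± 11.2 CPM at 1 week and 62.7 ± 9.16 CPM with no delay (SD, n = 4 each). The log2 fold change was 1.04 (SE 0.10, adjusted p = 6.94e-06).

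Rab20, linked to phagosome maturation in macrophages, had 3.26, 4.21, 2.43 and 2.44 CPM at 1 week, against 0.72, 0.82, 0.50 and 0.42 CPM with no delay. There was no overlap, and the gene passed the filter only through the 1-week libraries, which held 148 reads in all, against 25 with no delay. Its mean was 5.02 times higher at 1 week and its log2 fold change was 1.32 (SE 0.176, adjusted p = 9.29e-05). Rab21, which regulates integrin traffic through early endosomes, had 77.8, 75.4, 72.9 and 87.3 CPM at 1 week and 71.1, 72.1, 68.6 and 69.8 CPM with no delay. All 1-week libraries were above the no-delay ones, yet the difference did not pass the threshold (log2 fold change 0.15, adjusted p = 0.107).

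Rab22a, which acts in early endosomes and in the return of cargo to the surface, had 19.8, 17.0, 22.4 and 23.8 CPM at 1 week, against 32.0, 60.9, 56.4 and 25.3 CPM with no delay. All of W1 to W4 were lower, and the spread lay in the no-delay group, where N2 and N3 were high and N4 was only just above W4. The means were 20.8 ± 2.997 CPM at 1 week and 43.7 ± 17.6 CPM with no delay, and the log2 fold change was -0.96 (SE 0.233, adjusted p = 0.00671), the lowest among the Rab genes. Ppp4r1l-ps, which starts within 1 kb on the opposite strand, was higher at 1 week, at 9.11 ± 0.933 CPM against 6.99 ± 0.872 CPM (adjusted p = 0.0434).

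The Rab5 genes encode closely related proteins of early endosome fusion, and they parted. Rab5a had 170, 163, 195 and 205 CPM at 1 week, against 271, 263, 267 and 248 CPM with no delay, and every 1-week library was lower (log2 fold change -0.52, SE 0.0779, adjusted p = 0.000243). Rab5c had 115, 129, 119 and 106 CPM at 1 week, against 94.3, 92.3, 95.6 and 81.4 CPM with no delay, and every 1-week library was higher (log2 fold change 0.36, SE 0.0760, adjusted p = 0.00259). Rab5b overlapped between the groups at 127 to 137 CPM and 131 to 148 CPM (adjusted p = 0.242). Rab5a and Rab5c thus changed in opposite directions, and the ratios that test this within libraries are given with the other relatives.

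Among 9 tested Rabs of late endosomes, lysosomes, lysosome-related organelles and autophagy, Rab32, Rab7l1, Rab39 and Rab7 were higher, Rab24 and Rab9b were lower, and Rab9, Rab12 and Rab39b were not called. Rab32, which sorts cargo to melanosomes and other lysosome-related organelles, had 13.3, 27.3, 15.4 and 15.7 CPM at 1 week, against 3.38, 3.02, 2.67 and 2.19 CPM with no delay. The lowest 1-week library was far above the highest no-delay one, and W2 stood above the other 1-week libraries. The means were 17.9 ± 6.36 and 2.82 ± 0.508 CPM, a 6.37-fold difference. The log2 fold change was 2.27 (SE 0.194, adjusted p = 2.60e-06), the highest of the Rab genes and the 138th highest of the 14718 genes tested.

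Rab7l1, the gene now named Rab29, whose protein works with Lrrk2 at the Golgi and lysosomes, had 9.06, 10.5, 9.29 and 7.98 CPM at 1 week, against 4.30, 4.75, 6.04 and 4.17 CPM with no delay. All 1-week libraries were higher (log2 fold change 0.82, SE 0.133, adjusted p = 0.000466). Rab7, the main Rab of late endosomes and lysosomes, had 138, 171, 164 and 154 CPM at 1 week, against 138, 128, 120 and 108 CPM with no delay. W1 lay just below N1, at 137.58 and 137.79 CPM, and the other 1-week libraries were above the no-delay ones (log2 fold change 0.34, SE 0.0876, adjusted p = 0.00895).

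Rab39, linked to phagosome acidification and autophagy, had 2.30, 5.10, 3.07 and 3.01 CPM at 1 week, against 1.74, 1.92, 2.38 and 1.98 CPM with no delay. The groups overlapped, W2 was highest at 1 week, and the call was marginal (log2 fold change 0.51, SE 0.184, adjusted p = 0.0469). Without W2 it was lost (log2 fold change 0.33, adjusted p = 0.142), and it was lost in 12 of the alternatives tried. Rab39b, its X-linked relative, was not called, at 33.4 to 38.7 CPM and 34.5 to 42.3 CPM.

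Rab24, an atypical Rab linked to the clearance of autophagosomes, had 56.3, 53.3, 59.9 and 63.8 CPM at 1 week, against 108, 103, 98.3 and 81.8 CPM with no delay. Every 1-week library was lower, and N4 was the lowest of the no-delay libraries (log2 fold change -0.73, SE 0.0908, adjusted p = 5.38e-05). On GRCm38 the gene overlaps Prelid1 on the opposite strand, and whether counting used strand is not given in the sources used here. Prelid1 itself had 274 to 292 CPM at 1 week and 259 to 292 CPM with no delay, with an adjusted p of 0.686. Rab9b, a relative of the late endosome Rab9, had 15.9, 16.1, 18.9 and 18.7 CPM at 1 week, against 21.5, 29.4, 26.3 and 25.7 CPM with no delay. Its groups did not overlap (log2 fold change -0.53, SE 0.107, adjusted p = 0.00201), while Rab9 had 44.2 ± 2.37 and 43.5 ± 3.22 CPM and was not called.

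Of 11 tested Rabs of recycling and surface delivery, Rab13 and Rab11b were higher, Rab15 was lower and 8 were not called. With TMM scaling, median-of-ratios scaling or edgeR the counts were 1 higher and 2 lower, since Rab11b lost its call and Rab10, a Rab of surface delivery, was called lower (adjusted p = 0.0220 with TMM and 0.0223 with edgeR). DESeq2 called 2 higher and 3 lower, Rab10 among them (adjusted p = 0.0104). Calls over all 14718 genes also moved toward lower, from 3439 higher and 1971 lower in the main fit. They were 2904 and 2635 with TMM scaling and 2799 and 2762 with DESeq2. Rab13, which brings junction proteins to the surface of epithelial and endothelial cells, had 16.8, 15.9, 15 and 12.2 CPM at 1 week, against 6.66, 8.69, 9.31 and 7.19 CPM with no delay. Each of W1 to W4 was above each of N1 to N4 (log2 fold change 0.84, SE 0.131, adjusted p = 0.000352). A ribosomal protein gene, Rps27, starts within 1 kb on the opposite strand and had 110 to 122 CPM at 1 week and 112 to 146 CPM with no delay, without a call (adjusted p = 0.201).

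Rab15, a Rab of the recycling endosome, had 222, 214, 214 and 252 CPM at 1 week, against 293, 298, 292 and 310 CPM with no delay. Every 1-week library was lower (log2 fold change -0.40, SE 0.0664, adjusted p = 0.000489), and Fntb, which overlaps it on the opposite strand, was not called (adjusted p = 0.133). Rab11b had 161, 139, 193 and 149 CPM at 1 week, against 148, 123, 130 and 116 CPM with no delay, and the groups overlapped (log2 fold change 0.31, adjusted p = 0.0313). That call was lost on leaving out any of 5 libraries (W1, W3, N2, N3 or N4), with adjusted p of 0.0578 to 0.0938, and with TMM scaling (0.0565), median-of-ratios scaling (0.0635) and edgeR (0.0548). A pseudogene with its own row, Rab11b-ps2, had 37.7 ± 3.95 and 31.3 ± 3.91 CPM, and how reads were divided between near-identical copies is not given in the sources used here. Rab11a, Rab4a, Rab4b and Rab14, the core Rabs of recycling, were not called, and their 95% intervals on the log2 fold change lay between -0.13 and 0.28.

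Of 6 tested Rabs of regulated secretion, Rab27a was higher, Rab3c and Rab27b were lower, and Rab3b, Rab3d and Rab26 were not called. Rab27a, which docks lysosome-related granules and exosome-forming endosomes at the surface, had 7.61, 8.42, 7.50 and 6.43 CPM at 1 week, against 3.18, 2.93, 3.66 and 3.13 CPM with no delay. The ranges were apart (log2 fold change 1.00, SE 0.124, adjusted p = 5.12e-05). Rab3c, a synaptic vesicle Rab, had 176, 162, 176 and 140 CPM at 1 week, against 215, 215, 210 and 203 CPM with no delay. Every 1-week library was lower (log2 fold change -0.37, SE 0.0756, adjusted p = 0.00231). Rab27b, the relative of Rab27a found on secretory and synaptic vesicles, had 26.5, 20.03, 23.2 and 21.8 CPM at 1 week, against 25.9, 27.9, 30.5 and 28.03 CPM with no delay. W1 lay above N1, so the groups overlapped, and the call (log2 fold change -0.29, adjusted p = 0.0327) was lost on leaving out any of 6 libraries (W2, W3, W4, N2, N3 or N4), with adjusted p of 0.0589 to 0.101.

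Of 13 tested Rabs of the endoplasmic reticulum and Golgi, Rab34 was higher, Rab2a, Rab6b and Rab6 were lower, and 9 were not called. Rab2a, which acts between the endoplasmic reticulum and Golgi and in lysosome fusion, had 332, 336, 346 and 386 CPM at 1 week, against 432, 487, 456 and 386 CPM with no delay. The ranges only just failed to touch, with W4 at 385.61 CPM and N4 at 386.35 CPM (log2 fold change -0.33, SE 0.0802, adjusted p = 0.00692). Rab6b, a Golgi Rab known for its expression in neurons, had 291, 245, 247 and 260 CPM at 1 week, against 344, 328, 313 and 332 CPM with no delay, and every 1-week library was lower (log2 fold change -0.34, SE 0.0686, adjusted p = 0.00218).

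Rab6, the gene now named Rab6a, lay at 316 to 350 CPM at 1 week and 364 to 414 CPM with no delay. The groups did not overlap, but the call (log2 fold change -0.22, adjusted p = 0.0177) was lost without W2 (adjusted p = 0.0544) or W3 (adjusted p = 0.0624) and with quantile scaling. Mrpl48, which overlaps it on the opposite strand, was not called (adjusted p = 0.165). Rab34, linked to cilia and to lysosome positioning, had 12.7, 17.96, 16.8 and 16.4 CPM at 1 week, against 12.3, 11.5, 13.2 and 9.48 CPM with no delay. The groups overlapped through W1, and the call (log2 fold change 0.42, adjusted p = 0.0216) was lost without W2, W3 or N4, with adjusted p of 0.0596 to 0.0689, and with quantile scaling (0.195). Rab1 and Rab1b, the Rabs of transport from the endoplasmic reticulum to the Golgi, were not called, with log2 fold changes of 0.04 and 0.01.

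Of the 4 remaining genes, which include the ciliary Rab23 and Rab28, only Rab40c was called. Rab40c, whose protein carries a domain for ubiquitin ligase assembly, had 14.3, 16.2, 17.6 and 18 CPM at 1 week, against 33.6, 37.4, 38.6 and 20.4 CPM with no delay. Every 1-week library was lower, and N4 was the lowest of the no-delay libraries (log2 fold change -0.90, SE 0.169, adjusted p = 0.00125). Rab40b had 37.7 ± 2.22 and 42.8 ± 2.99 CPM and was not called (adjusted p = 0.0851), but it was called lower in 6 alternatives, among them TMM scaling (0.0233), quantile scaling (0.0360), edgeR (0.0232) and DESeq2 (0.0166).

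**Figure D3:**
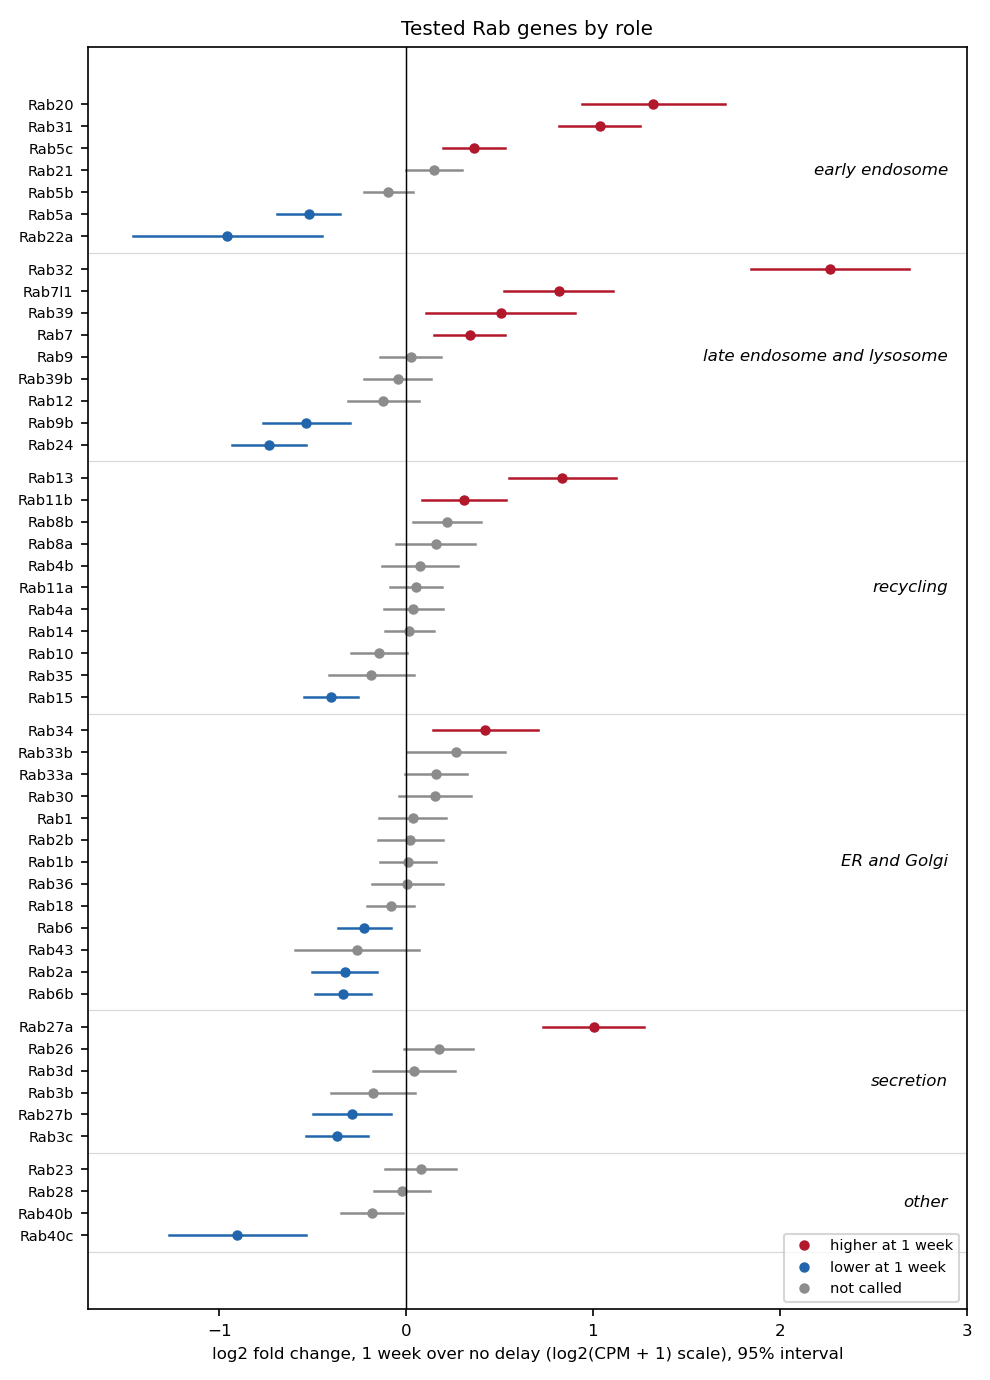
Log2 fold change of each of the 50 tested Rab genes (x axis, 1 week over no delay on the log2(CPM + 1) scale) with its 95% interval, grouped by role down the page, in red where higher at 1 week, blue where lower and grey where not called. Rab32 lies farthest to the right at 2.27 and Rab22a farthest to the left at -0.96.

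Rab19, Rab37 and Rab38 did not pass the filter and were not tested. Rab38, the melanosome Rab closest to Rab32, had 13 reads over the 1-week libraries and 13 over the no-delay libraries. Rab37, a secretory Rab, had 33 and 30 reads, and Rab19 had 4 and 3. Rab38 and Rab19 had few reads in each library, which limits what a comparison of the groups could show.

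The balance between close relatives was compared within libraries, as the log2 ratio of (CPM + 1). Any scaling of a library largely cancels in it where both genes lie well above 1 CPM. Of 10 pairs, 6 differed between the groups with an exact 2-sided permutation p of 0.0286 each (adjusted p = 0.0476 over the 10 pairs), the smallest that the 70 arrangements of 4 against 4 libraries allow. With fewer than 6 pairs at that p, none would pass the adjustment. Each pass thus depends on all 6, Rab32 over Rab38 among them, although Rab38 did not pass the filter. The ratios among the Rab5 genes share genes, so the 6 pairs are not independent. Rab5c had 0.676, 0.794, 0.609 and 0.518 times the CPM of Rab5a at 1 week, against 0.347, 0.351, 0.358 and 0.328 times with no delay. The ratio was higher in every 1-week library, and the log2 ratio differed by 0.89. As a share of the summed Rab5 CPM, Rab5a made up 37.9% to 46.8% at 1 week, against 52.0% to 54.1% with no delay, and Rab5c 24.3% to 30.1%, against 17.1% to 19.4%. The sum itself was 418 to 443 CPM at 1 week and 477 to 506 CPM with no delay. The log2 ratio of Rab5a to Rab5b differed by -0.43 and that of Rab5c to Rab5b by 0.46, which share their genes with the ratio of Rab5c to Rab5a.

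Rab27a had 0.288, 0.420, 0.323 and 0.294 times the CPM of Rab27b at 1 week, against 0.123, 0.105, 0.120 and 0.112 times with no delay. No 1-week ratio overlapped a no-delay ratio, and the log2 ratio differed by 1.29. Rab32 over Rab38 differed by 2.30, which rests on Rab32, since Rab38 was at a few reads in every library. Rab38 lay at 0.1 to 0.69 CPM, below the added 1, so library scaling does not cancel in this ratio. Rab3c over Rab3d differed by -0.41, with mean log2 ratios of 3.27 ± 0.190 and 3.68 ± 0.158 (SD, n = 4 each). The other 4 pairs did not pass. The log2 ratio differed by 0.26 for Rab11b over Rab11a (exact permutation p = 0.143), 0.19 for Rab3b over Rab3c (p = 0.171, exact), -0.22 for Rab3b over Rab3d (p = 0.229, exact) and -0.11 for Rab6b over Rab6 (p = 0.171, exact). On leaving out any no-delay library (N1, N2, N3 or N4), no pair passed after adjustment, with 4 pairs at the smallest adjusted p of 0.0714 and Rab5a/Rab5b and Rab3c/Rab3d at an exact p of 0.0571. On leaving out any 1-week library, 6 pairs passed, at the same smallest exact p of 0.0286. The groups of the pairs that passed stay apart without any library, which follows from their being apart with all libraries. Why the pairs were lost on 1 side only was not tested.

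**Figure D4:**
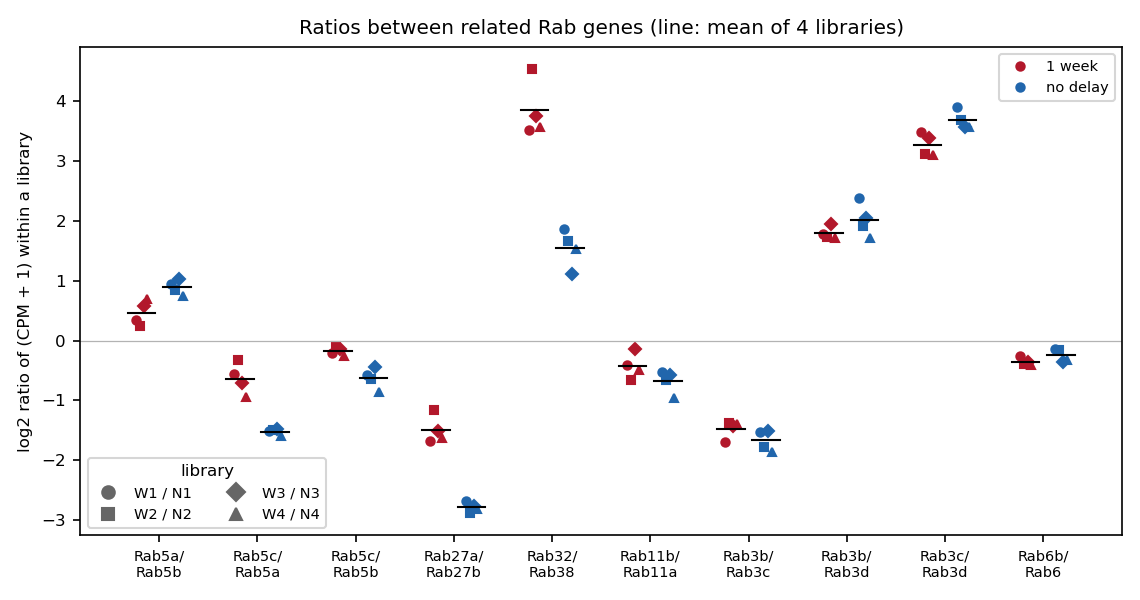
Log2 ratio of (CPM + 1) between close relatives within each library (y axis) for 10 pairs (x axis), with 1-week libraries in red on the left and no-delay libraries in blue on the right of each pair, a symbol for each of W1 to W4 and N1 to N4 and a line at the mean of 4 libraries. The groups are apart for Rab5a/Rab5b, Rab5c/Rab5a, Rab5c/Rab5b, Rab27a/Rab27b, Rab32/Rab38 and Rab3c/Rab3d and overlap for the other 4 pairs.

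The direction of calls varied with level among the Rab genes, as it did over all genes. The cuts at 20 and 100 CPM, applied to the mean over the 8 libraries, were chosen after values had been seen. Of 9 tested Rab genes under 20 CPM, 7 were higher at 1 week and 0 were lower by limma, while 31.4% of all genes at that level were higher and 5.52% lower. The others, Rab3d and Rab43, did not pass, at unadjusted p of 0.674 and 0.113, and edgeR and DESeq2 also called 0 lower at this level. With quantile scaling 5 were higher and 1 lower, since Rab34 and Rab39 lost their calls and Rab43 was called lower (log2 fold change -0.55, adjusted p = 0.0139), as it also was without W4 (adjusted p = 0.0409). From 20 to under 100 CPM, 1 of 24 was higher (Rab31) and 5 were lower, against 18.9% and 16.8% of all genes. At 100 CPM or more, 3 of 17 were higher (Rab5c, Rab7 and Rab11b) and 6 lower (Rab15, Rab2a, Rab3c, Rab5a, Rab6 and Rab6b), against 13.9% and 25.6%. At the low end the filter itself favours rises, since a gene under 1 CPM in all no-delay libraries is tested only if it reached 1 CPM at 1 week, as with Rab20. Library W2 had the highest 1-week sums of microglia, macrophage and monocyte, astrocyte, endothelium, oligodendrocyte precursor, and pericyte and fibroblast markers. It was also the highest 1-week library for 6 of the 7 Rab genes called higher by 0.5 or more on the log2 scale (Rab32, Rab20, Rab31, Rab27a, Rab7l1 and Rab39), while Rab13 was highest in W1, at 16.8 CPM against 15.9 CPM in W2. How often W2 was highest over all genes called higher was not counted, so this describes these genes only. A link to the marker sums was not tested. Without W2, 9 Rab genes were higher and 9 lower. Over all 14718 genes, 2841 were higher and 1429 lower without W2, against 3439 and 1971 with it. The mean of Rab32 without it was then 14.8 CPM, 5.26 times that of the no-delay group (log2 fold change 2.06, adjusted p = 1.70e-06), and Rab20, Rab31, Rab27a and Rab7l1 were still called, with adjusted p of 0.000359, 4.36e-05, 0.000294 and 0.00223.

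**Figure D5:**
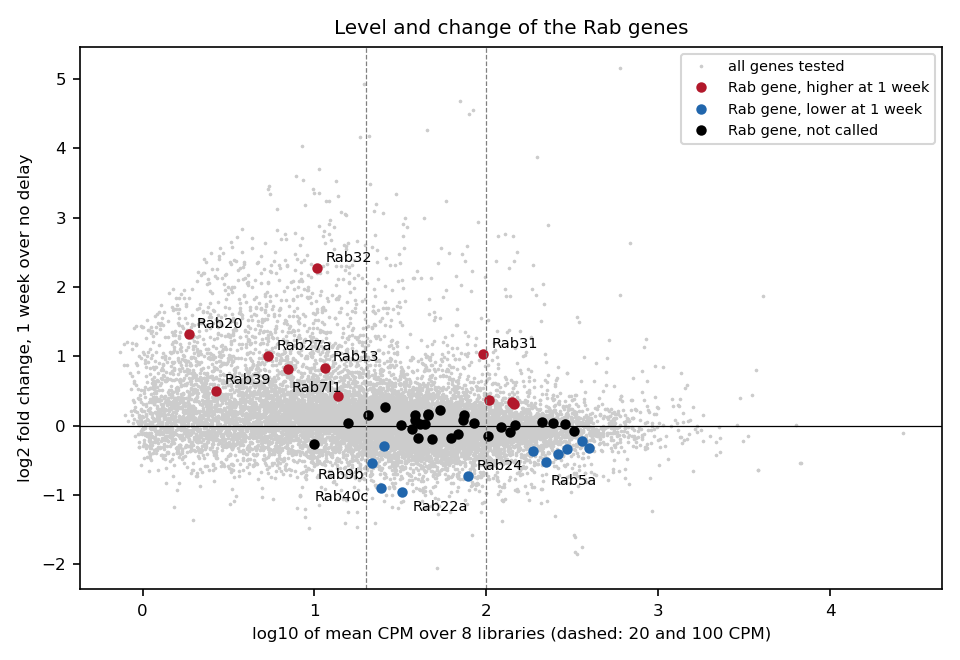
Log2 fold change (y axis, 1 week over no delay) against the log10 mean CPM over the 8 libraries (x axis) for all 14718 tested genes in grey and the 50 tested Rab genes in red (higher at 1 week), blue (lower) or black (not called), with dashed lines at 20 and 100 CPM. Of 9 Rab genes left of the first line 7 are red and 0 are blue (5 and 1 with quantile scaling), and right of the second line 3 of 17 are red and 6 are blue.

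The regulators and effectors of Rabs were read from 5 lists. Over the lists 113 genes were tested, of which 19 were higher and 20 lower, or 16.8% and 17.7%, against 23.4% higher and 13.4% lower over all genes. Their median log2 fold change was 0.06, as over all genes. Of the 7 chaperone and prenylation genes, which attach Rabs to membranes or draw them off, Gdi2 was higher and 6 were not called. Gdi2, a GDP dissociation inhibitor, had 281, 305, 298 and 280 CPM at 1 week, against 241, 226, 239 and 223 CPM with no delay. No overlap was seen (log2 fold change 0.32, adjusted p = 0.00108).

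Of 28 GEFs, 5 were higher and 5 lower, against 23.4% and 13.4% of all genes, with a median log2 fold change of -0.03. Rab3il1, an exchange factor for Rab8 and also called Grab, had 26.9, 40.9, 35.4 and 35.3 CPM at 1 week, against 11.7, 10.1, 10.3 and 9.69 CPM with no delay. The groups were far apart (log2 fold change 1.63, SE 0.121, adjusted p = 8.48e-07). Dennd1c, a DENN-domain factor for Rab35, averaged 4.07 ± 0.582 and 1.14 ± 0.236 CPM (log2 fold change 1.25), and Rin2, an exchange factor for Rab5, averaged 11.2 ± 1.39 and 4.92 ± 1.09 CPM (log2 fold change 1.06). Ccz1, which with Mon1 activates Rab7, averaged 46.4 ± 5.71 CPM at 1 week and 78.4 ± 12.8 CPM with no delay (log2 fold change -0.74, adjusted p = 0.000350). Dennd1a and Sbf1 were lower by smaller amounts (log2 fold changes -0.35 and -0.22), and the call on Sbf1 was lost in 7 alternatives.

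Of 33 GAPs, 2 were higher and 6 lower, against 23.4% and 13.4% of all genes, with a median of 0.07. Tbc1d14, linked to Rab11 and autophagy, and Tbc1d16, which acts on Rab4, had log2 fold changes of 0.54 and 0.39. Sgsm2, a GAP linked to Rab32 and Rab38 in melanocytes, had 48.4, 37.0, 47.7 and 57.1 CPM at 1 week, against 85.7, 128, 116 and 77.5 CPM with no delay. Every 1-week library was lower, and N2 and N3 were high among the no-delay libraries, as for Rab22a (log2 fold change -1.07, SE 0.159, adjusted p = 0.000235). Sgsm1 and Tbc1d22b had log2 fold changes of -0.51 and -0.50.

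Of 42 effectors, 9 were higher and 8 lower, against 23.4% and 13.4% of all genes, with a median of 0.10. Ehbp1l1, an effector of Rab8, averaged 3.30 ± 0.228 and 1.05 ± 0.233 CPM (log2 fold change 1.07). Mlph, the melanophilin that ties Rab27a to myosin, averaged 5.79 ± 1.15 and 2.27 ± 0.331 CPM (log2 fold change 1.05), and Micall2, an effector of Rab13, averaged 7.15 ± 1.59 and 2.95 ± 0.186 CPM (log2 fold change 1.02). Uso1, the Golgi tether p115 and an effector of Rab1, had 30.2, 27.6, 32.4 and 32.6 CPM at 1 week, against 58.4, 96.8, 82.9 and 44.8 CPM with no delay. The 1-week libraries lay close together below widely spread no-delay libraries (log2 fold change -1.12, SE 0.187, adjusted p = 0.000531). The synaptic effectors of Rab3, Rph3a and Rims1, were lower, with log2 fold changes of -0.63 and -0.59. Of the 4 genes that phosphorylate or dephosphorylate Rabs, Lrrk1 had 11.5, 13.1, 9.43 and 11.2 CPM at 1 week, against 3.38, 3.38, 4.06 and 3.96 CPM with no delay. There was no overlap (log2 fold change 1.39, SE 0.125, adjusted p = 4.17e-06). Lrrk2 was lower with overlapping groups (60.2 ± 5.41 and 71.8 ± 3.81 CPM, adjusted p = 0.0203), a call lost in 3 alternatives, and Ppm1m was higher with overlapping groups (log2 fold change 0.33, adjusted p = 0.0312), a call lost in 10.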

How the data were processed

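CAGE libraries from 4 samples at 1 week and 4 with no delay were used. Single-end reads of 75 nt were taken from column-purified total RNA, per the labels' protocols. The submitters' processing notes name BWA 0.5.9 and the build mm9. The deposited table, made by the authors, holds CPM values for 17644 gene symbols. How tags became gene values, and whether strand was used, is not given in the sources used here. Column names give the group but no replicate number. At least 99.98% of values in each column were whole multiples of the value of 1 read within 0.1 read, which gave the recovered reads. Rows in the table all named a gene, and no Rab row was identical to another.

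The 14718 genes that reached 1 CPM in at least 4 libraries were tested on log2(CPM + 1) with limma 3.58.1 (R 4.3.3, variance trend, 2-sided), adjusted by Benjamini-Hochberg over all of them, and called at an adjusted p under 0.05. Fold changes on this scale understate the change of genes with few reads. Relatives were compared by exact permutation. No library was a repeat of another within sampling error (chi-square per gene between libraries of a group, mean 8.36 to 15.9), and each was counted as the labels list it. On simulated reads with the depths of this comparison (14370 genes tested), limma recovered 71.2% of genes changed 1.5-fold, 98.6% changed 2-fold and 100% changed 4-fold, with 8 false calls among 14170 unchanged genes. The changed genes were drawn only from those above a set no-delay mean. Rab20, Rab39, Rab32, Rab27a and Rab7l1 (the highest, at 4.815 CPM) did not reach it, so these rates do not describe genes at their level. The alternatives were other pseudocounts, filters and scalings, edgeR 4.0.16 and DESeq2 1.42.0 on the recovered reads, library weights, and leaving out each library.

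Members were matched by symbol, and chromosomes and neighbours were read from GENCODE M21 on GRCm38, by name only. Promoters came from RefSeq (GRCm38.p6), and no coordinates of mm9 are given. The rule named the Rab genes called with a log2 fold change of 0.5 or more in size, the pairs of relatives, the untested Rab genes and, for each list, up to 3 called genes per direction with the largest change. The other Rab genes and the neighbours were named after their values were seen. The members and lists were chosen with earlier results of these data known. The 3-read floors describe counting error alone, and no molecular identifiers are named in the labels, so tags may repeat a molecule.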

Additional observations from a re-analysis of the deposited data

Results flagged for a closer look

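Within the 4 libraries of a group, a library was set apart where its gap to the nearest other library was a large part of the group's range (Dixon's ratio, against its critical value for 4 values). Of 104 groups of 4 looked at, 5 had such a library, and chance alone flags about 1 in 20. Rab31 was low in W1, at 112 CPM with the next at 133 CPM (ratio 0.845), and still above every no-delay library. Rab38 was high in W4, at 0.41 CPM with the next at 0.24 CPM (ratio 0.85), which is a few reads. Rab8b was low in N4, at 45.8 CPM with the next at 50.2 CPM (ratio 0.922). Rab12 and Rab9 were high in N1, at 75.9 CPM with the next at 70.3 CPM (ratio 0.829161) and at 48.3 CPM with the next at 42.2 CPM (ratio 0.870).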

How the results depend on the processing

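Of 22 called Rab genes, 17 (8 higher and 9 lower) kept the call in every alternative that tested them, and no call changed sign in the 18 alternatives. The calls on Rab11b, Rab27b, Rab34, Rab39 and Rab6 were lost in 8, 6, 4, 12 and 3 of them; the cause was not tested. Of the Rab genes not called, 8 were called in 1 to 6 alternatives, Rab10, Rab12, Rab35, Rab40b and Rab43 lower and Rab26, Rab33b and Rab8b higher. The counts stayed within 1.5 times, at 9 higher and 12 to 13 lower under TMM, median-of-ratios and quantile scaling, 10 and 13 with edgeR, 10 and 14 with DESeq2, 13 and 12 with library weights, and 8 to 12 and 9 to 12 on leaving out 1 library. Other pseudocounts and filters gave 9 to 11 and 11. Rab regulators and effectors numbered 14 to 27 higher and 14 to 30 lower, and Rab genes with groups apart 7 to 12 above and 10 to 14 below. On recovered reads edgeR called 2923 of all genes higher and 2569 lower. Over all genes the median log2 fold change was 0.06 with CPM, 0.003 with TMM and -0.04 with quantile scaling, where 43.4% of all calls were higher. Without each library in turn, 0 to 6 pairs of relatives passed. It was 6 without any 1-week library and 0 without any no-delay library. The groups of the pairs passing in the main test stayed apart throughout, which follows from their being apart with all libraries. The reason for the contrast was not tested. No paired analysis was possible because the columns carry no replicate number. The depth limits Rab19 and Rab38, which had 13 reads or fewer in a group.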
